A study of Homo sapiens with 12 samples.

Results

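The genes examined were 46 interferon-stimulated genes, listed by name, with no threshold on a measured value as part of the rule. Of these, 45 could be followed on the arrays, out of 19775 genes in all, each through the probe set (a group of short probes for a transcript) with the highest mean over the arrays. STAT2 had no probe set annotated to it alone in the probe table used. The samples were 12 Affymetrix HG-U133 Plus 2.0 arrays of total RNA from Hs578T and BT-20, which are established human breast cancer cell lines. All cultures received an oligonucleotide at 200 nM for 24 h together with the liposomal transfection reagent DOTAP. CDH13 M (M) and CDH13 U (U) were the same double-stranded DNA from exon 1 of CDH13, with or without methylated CpG cytosines, and each had 2 arrays per line, named set 1 and set 2 and labelled as biological replicates. ODN2006, a single-stranded CpG oligodeoxynucleotide, and its GpC control had 1 array each per line. Untreated cells and cells given DOTAP alone were not analysed here, so a level in unstimulated cells cannot be given, and every level below is a level in transfected cells.

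Interferons are secreted proteins that bind receptors on the cell surface, and JAK kinases then activate transcription factors of the STAT family, which enter the nucleus with IRF9 and bind the interferon-stimulated response element in the promoters of the responding genes. The induced proteins degrade or bind viral RNA, block translation, hold back virus particles at membranes, sense foreign RNA, or raise the response further. Many cancer cell lines keep part of this programme switched on without added interferon. ODN2006 belongs to the CpG oligonucleotides that activate TLR9, an endosomal receptor of immune cells for unmethylated CpG DNA, and methylation of the CpG cytosines is known to weaken that recognition.

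The oligonucleotides are shown because all comparisons of treatment are comparisons of these molecules, written from 5′ to 3′ with each CpG in capitals.
ODN2006: tCGtCGttttgtCGttttgtCGtt
ODN2006 control: tgctgcttttgtgcttttgtgctt
CDH13 U top strand: tCGgatCGccCGgcaCGggcagggtgaggg
CDH13 U complementary strand: ccctcaccctgccCGtgcCGggCGatcCGa
ODN2006 had 4 CpG in 24 bases and its control had none. The CDH13 duplex had 4 CpG in the 30 bases of each strand, and in M the cytosines of all of them were methylated.

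Most of the promoters found held a motif that is known for this class of genes, so its frequency is a description and not independent support. RefSeq promoter sequence (GRCh38.p14, from 250 bases before to 50 after the start of the gene) was found for 37 of the genes. The letters GAAANNGAAA, or TTTCNNTTTC for the other strand, which are the core of the interferon-stimulated response element, occurred in 25 of the 37 promoters (67.6%) and in 996 of 27305 promoters in all (3.65%). The letters TTCNNNGAA, the core of the gamma-activated site, occurred in 11 of the 37 (29.7%) and in 7.88% of all promoters, and the same stretch may hold both motifs. Genes with low array values did not lack the first motif, which was in 6 of 8 promoters of genes under a log2 value of 5 in every array and in 19 of 29 of the others. A match is a description of the letters, not a bound site.

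Parts of these promoters before the gene start are shown for genes higher in BT-20 (BST2, IFITM1, OAS3), higher in Hs578T (EPSTI1, DDX60), high in both lines (ISG15) and low in both (IFI27), on the strand of the gene and with the response element in capitals.
BST2, chr19:17405720-17405779, minus strand: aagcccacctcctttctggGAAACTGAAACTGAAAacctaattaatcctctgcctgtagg
IFITM1, chr11:313975-314034, plus strand: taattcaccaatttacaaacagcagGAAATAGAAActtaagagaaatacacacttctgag
OAS3, chr12:112938437-112938473, plus strand: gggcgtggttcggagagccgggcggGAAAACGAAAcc
EPSTI1, chr13:42992257-42992316, minus strand: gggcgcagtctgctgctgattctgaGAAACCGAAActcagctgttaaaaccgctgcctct
DDX60, chr4:168318771-168318830, minus strand: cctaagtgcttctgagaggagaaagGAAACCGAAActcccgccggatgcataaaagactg
ISG15, chr1:1013365-1013424, plus strand: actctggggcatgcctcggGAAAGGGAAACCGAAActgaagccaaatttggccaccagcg
IFI27, chr14:94110616-94110675, plus strand: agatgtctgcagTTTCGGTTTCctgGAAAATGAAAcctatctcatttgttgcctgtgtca
The promoters shown were picked among those with the motif. It was not found in the promoter sequence of SAMD9L, XAF1 or RIGI, which were higher in Hs578T, or of PARP9, which was higher in BT-20.

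The levels of these genes are GCRMA values, which are log2 values summarised over the probes of a probe set after background correction. A value of 5 was used as the level below which a gene was treated as dim, and at least 5 in 2 arrays of a comparison was required for testing. Of the 45 genes, 12 were under 5 in every array (26.7%), as were 45.4% of all genes. These were IFI27, IFI44L, MX1, MX2, OAS2, OASL, ISG20, HERC5, RSAD2, CMPK2, TRIM22 and CXCL10, among them genes that are known for strong induction by interferon. At the other end, 17 genes were at 5 or above in all 12 arrays. The remaining 16 reached 5 in some arrays. Of them, 5 did so in every Hs578T array and no BT-20 array (IFI6, DDX60, XAF1, SAMD9L and EPSTI1). Another 3 did so in every BT-20 array and no Hs578T array (BST2, OAS3 and IRF7). For the counts of 17, 5 and 3 the share over all genes was not counted, so they are a description only.

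**Figure D1:**
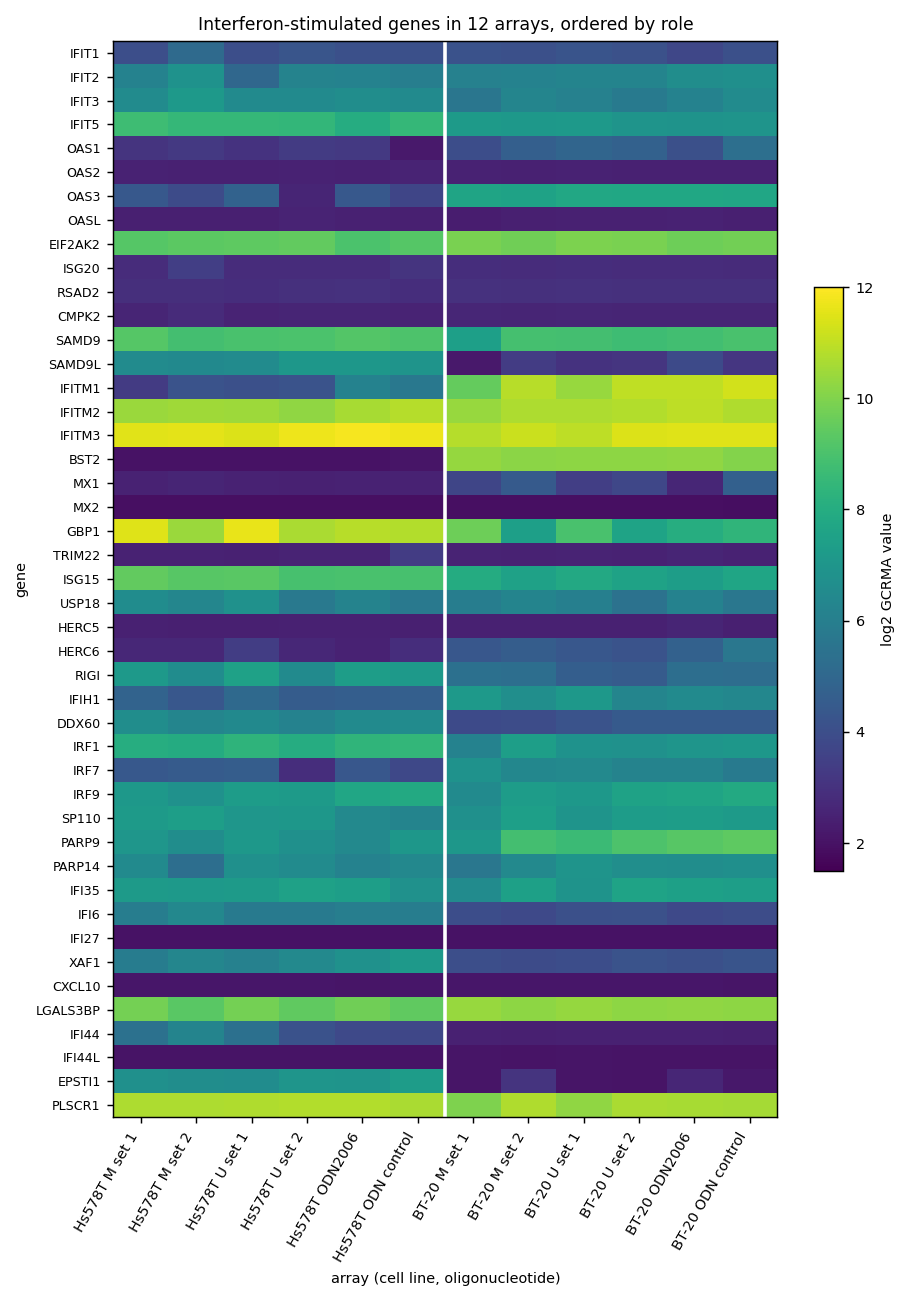
Log2 GCRMA value (colour, from 1.5 to 12) of 45 interferon-stimulated genes (rows, ordered by role) in 12 arrays (columns, 6 of Hs578T left of the white line and 6 of BT-20 right of it). The bright rows left and right of the line differ, as for BST2 and EPSTI1, and 12 genes stay under 5 throughout.

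Arrays of Hs578T correlated at 0.985 to 0.997 over genes and arrays of BT-20 at 0.990 to 0.998. All 7 mesenchymal markers were at 10.36 or above in Hs578T, whereas 4 of them were under 5 in every BT-20 array. All 7 epithelial markers were at 9.40 or above in BT-20, and 5 of them were under 5 in every Hs578T array. The 4 leukocyte markers followed, among which PTPRC marks all leukocytes, lay between 1.73 and 3.19 in all arrays.

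The BT-20 M array of set 1 stood apart for these genes, as was seen after their values were known. It was lower than each of the other BT-20 arrays by over 0.5 for 6 of 24 genes that reached 5 in BT-20 (IFITM1, IRF1, IRF9, PARP9, PARP14 and SAMD9), against 224 of 9522 genes in all (2.35%). SAMD9, which limits the replication of poxviruses, was at 7.41 in it and at 8.72 to 8.97 in the other 5. PARP9, an ADP-ribosyltransferase that works with DTX3L, was at 7.07 and otherwise at 8.64 to 9.40. GBP1 was higher in it than in each other BT-20 array. The Hs578T M array of set 2 was higher than each other Hs578T array by over 0.5 for 3 of 26 genes (IFIT2, IFIT3 and IFI44), against 1.08% of all genes, and lower for PARP14. Which step set these arrays apart was not tested. Differences without these arrays are given below for some of the genes, not for all that move.

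The difference between the lines was tested over the 8 M and U arrays, with limma and Benjamini-Hochberg adjustment over 10410 genes. Of the 30 genes tested, 13 were higher in Hs578T, where 34.4% of all genes were, and 8 were lower, where 40.2% were. The median difference, Hs578T minus BT-20, was 0.39 on the log2 scale over these genes and -0.09 over all genes. The median size of the difference was 1.48 over these genes and 0.82 over all. The genes thus did not move together between the lines. Since most genes of any kind differed between the lines, the counts are near the background, and the sizes describe these genes better. Centring the arrays on 8 housekeeping genes moved the median of all genes from -0.09 to 0.19 and gave 15 higher and 6 lower. Shares of all genes after centring are not given here, and 34.4% and 40.2% are no background for these counts. The calls of EIF2AK2 and LGALS3BP were lost and those of PLSCR1 and SAMD9 gained, so calls of small size depend on the centring.

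**Figure D2:**
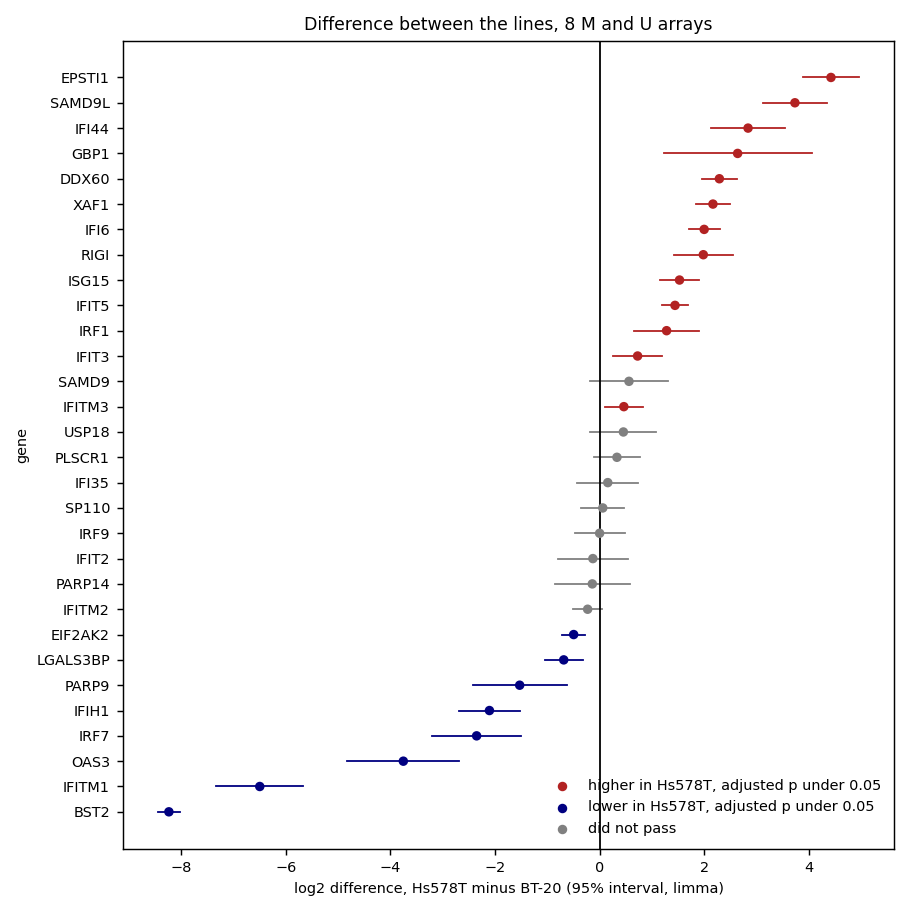
Difference in log2 GCRMA value, Hs578T minus BT-20, for the 30 genes tested (rows), with 95% intervals from limma over 8 M and U arrays. Red points (13) passed the test as higher in Hs578T, blue points (8) as lower, and grey points (9) did not pass, from BST2 at -8.23 to EPSTI1 at 4.42.

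Among the genes that act at membranes, BST2 and IFITM1 differed most between the lines. BST2 (tetherin), which ties budding virus particles to the cell surface, was at 2.02 and 2.00 with M, 1.99 and 2.01 with U, 2.02 with ODN2006 and 2.08 with its control in Hs578T. In BT-20 it was at 10.36 and 10.16 with M, 10.22 and 10.21 with U, 10.26 with ODN2006 and 10.07 with its control. The lines did not overlap, and in these bulk RNA samples fewer expressing cells and less RNA per cell cannot be told apart. The difference was -8.23 (SE 0.09, adjusted p = 5.993e-09), and with values under 5 raised to 5, since the Hs578T arrays lie in the range of background, BST2 was at least 37.8-fold higher in BT-20.

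IFITM1, a membrane protein that blocks the entry of enveloped viruses, was at 3.33 and 4.19 with M and 4.06 and 4.17 with U in Hs578T. It was at 9.51 and 10.89 with M and 10.36 and 10.99 with U in BT-20, so that every BT-20 array was above every Hs578T array of M and U. The Hs578T ODN arrays, at 6.14 and 5.69, were closer and are described with the ODNs. The difference was -6.50 (SE 0.35, adjusted p = 5.27e-06), at least 43.3-fold on the floored scale for M and U, and -6.84 without the BT-20 M array of set 1. Its close relatives IFITM2 and IFITM3 were high in both lines, IFITM2 between 10.25 and 10.95 and IFITM3 between 10.82 and 11.84, and their probe sets, which carry a suffix for possible cross-hybridisation, may share signal. IFITM3 was higher in Hs578T by 0.46 (SE 0.15, adjusted p = 0.02674), a call lost without any one of 5 arrays and without the filter, and IFITM2 did not pass.

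GBP1, a guanylate-binding GTPase best known as a target of interferon gamma, went the other way. In Hs578T it was at 11.48 and 10.43 with M, 11.65 and 10.67 with U, 10.88 with ODN2006 and 10.79 with its control. The BT-20 arrays gave 9.69 and 7.43 with M, 8.98 and 7.58 with U, 8.06 with ODN2006 and 8.36 with its control. All Hs578T arrays were above all BT-20 arrays, and in either line the set 1 arrays were above the set 2 arrays. GBP1 was higher in Hs578T by 2.64 (SE 0.59, adjusted p = 0.005714), or 3.20 without the BT-20 M array of set 1, and its other probe sets that reached 5 gave 2.48 and 1.96.

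Of the genes that act on RNA and translation, 3 of 7 tested were higher in Hs578T and 2 were lower, shares near those of all genes (34.4% and 40.2%). OAS3, which makes the messenger that activates RNase L, was at 4.40 and 3.91 with M, 4.81 and 2.60 with U, 4.39 with ODN2006 and 3.70 with its control in Hs578T. It was at 7.64 and 7.55 with M, 7.80 and 7.75 with U, 7.74 with ODN2006 and 7.73 with its control in BT-20. OAS3 was narrow in BT-20 and spread under 5 in Hs578T. The difference was -3.75 (SE 0.45, adjusted p = 0.0002582), at least 6.42-fold on the floored scale. EIF2AK2 (PKR), the kinase that stops translation on double-stranded RNA, was lower in Hs578T by 0.50 (SE 0.09). Both of its other probe sets reached 5 and went the other way, at 0.19 and 0.08. The probe set used carries a suffix for possible cross-hybridisation.

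SAMD9L, the neighbour and relative of SAMD9, was at 6.56 and 6.50 with M, 6.56 and 7.04 with U, 7.07 with ODN2006 and 6.92 with its control in Hs578T. In BT-20 it was at 2.21 and 3.36 with M, 3.02 and 3.13 with U, 3.85 with ODN2006 and 3.15 with its control. SAMD9L was thus above 5 in Hs578T alone. It was higher there by 3.73 (SE 0.26, adjusted p = 1.717e-05), or at least 3.17-fold on the floored scale. SAMD9 itself was high in both lines and did not pass. IFIT5, which binds the ends of foreign RNA, and IFIT3, a partner of IFIT1, were higher in Hs578T by 1.44 (SE 0.11) and 0.72 (SE 0.20), and IFIT2 did not pass at -0.13 (95% interval -0.80 to 0.54).

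The sensors of foreign RNA divided between the lines. IFIH1 (MDA5), which binds long double-stranded RNA, was at 4.83 and 4.34 with M, 5.08 and 4.57 with U, 4.62 with ODN2006 and 4.66 with its control in Hs578T. BT-20 gave 7.17 and 6.67 with M, 7.11 and 6.29 with U, 6.50 with ODN2006 and 6.38 with its control. IFIH1 was lower in Hs578T by 2.11 on the log2 scale (-2.11, SE 0.24, adjusted p = 0.000224), at least 3.46-fold on the floored scale.

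RIGI, which binds short double-stranded RNA with a free end, was at 7.16 and 6.60 with M, 7.51 and 6.52 with U, 7.35 with ODN2006 and 7.20 with its control in Hs578T. In BT-20 it was at 5.40 and 5.30 with M, 4.65 and 4.51 with U, 5.31 with ODN2006 and 5.25 with its control. RIGI was higher in Hs578T by 1.98 (SE 0.24, adjusted p = 0.0002624), but the direction depended on the probe set read. Another of its probe sets, with the suffix for possible cross-hybridisation, gave -1.91, and the remaining one gave 0.12. Why they differ was not tested. DDX60, a helicase linked to RIGI signalling, was at 6.66 and 6.27 with M, 6.50 and 6.17 with U, 6.52 with ODN2006 and 6.58 with its control in Hs578T. The BT-20 arrays gave 3.85 and 3.95 with M, 4.20 and 4.46 with U, 4.46 with ODN2006 and 4.49 with its control. DDX60 was above 5 in Hs578T alone, higher by 2.29 (SE 0.14, adjusted p = 9.702e-06) or at least 2.64-fold on the floored scale.

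The transcription factors did not follow a common direction either. IRF7, which drives transcription of the interferon genes themselves, was at 4.41 and 4.52 with M, 4.58 and 2.89 with U, 4.36 with ODN2006 and 3.77 with its control in Hs578T. The BT-20 values were 6.84 and 6.34 with M, 6.44 and 6.19 with U, 6.18 with ODN2006 and 5.82 with its control. IRF7 was above 5 in BT-20 alone, with a difference of -2.35 (SE 0.35, adjusted p = 0.0008438), at least 2.74-fold. IRF1, a factor of the interferon gamma response, was higher in Hs578T by 1.28 (SE 0.26, adjusted p = 0.003506), and IRF9, the DNA-binding partner of the STAT proteins, did not pass (95% interval -0.48 to 0.48). PARP9 was lower in Hs578T (-1.53, SE 0.38), while PARP14, SP110 and IFI35 did not pass. IRF1 and PARP9 kept their calls without the BT-20 M array of set 1, but the sizes given include that low array.

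EPSTI1, first described as a gene switched on in epithelial cells by stromal contact, was at 6.78 and 6.64 with M, 6.60 and 6.98 with U, 6.94 with ODN2006 and 7.30 with its control in Hs578T. In BT-20 EPSTI1 was at 2.08 and 3.10 with M, 2.08 and 2.06 with U, 2.62 with ODN2006 and 2.18 with its control. The difference was 4.42 (SE 0.23, adjusted p = 4.262e-06), the largest in favour of Hs578T, and at least 3.37-fold on the floored scale. EPSTI1 was read by 1 bright probe set, and its other probe set stayed under 5 with a difference of -0.02.

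IFI44 was at 5.42 and 6.24 with M, 5.36 and 4.13 with U, 3.80 with ODN2006 and 3.75 with its control in Hs578T. The BT-20 arrays gave 2.46 and 2.44 with M, 2.46 and 2.45 with U, 2.45 with ODN2006 and 2.43 with its control. Its Hs578T arrays lay on both sides of 5, and each was above all BT-20 arrays. IFI44 was higher in Hs578T by 2.84 (SE 0.30, adjusted p = 0.0001337), of which the floored scale secures at least 1.42-fold.

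XAF1, which binds the apoptosis inhibitor XIAP, was at 5.89 and 6.32 with M, 6.10 and 6.44 with U, 6.83 with ODN2006 and 7.18 with its control in Hs578T. BT-20 gave 4.01 and 3.92 with M, 3.98 and 4.18 with U, 4.06 with ODN2006 and 4.23 with its control. XAF1 was higher in Hs578T by 2.17 (SE 0.14, adjusted p = 1.271e-05), at least 2.28-fold. IFI6, a mitochondrial protein that opposes apoptosis, was at 5.95 and 6.40 with M, 5.79 and 5.82 with U, 6.00 with ODN2006 and 5.96 with its control in Hs578T. BT-20 gave 3.99 and 3.81 with M, 4.06 and 4.11 with U, 3.83 with ODN2006 and 3.94 with its control. IFI6 was above 5 in Hs578T alone, higher by 2.00 (SE 0.12, adjusted p = 1.029e-05), at least 1.98-fold. Both genes tested of those linked to mitochondria and apoptosis were thus higher in Hs578T, where 34.4% of all genes were. So few genes do not describe the group, and the third of them, IFI27, was dim in both lines.

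ISG15, the ubiquitin-like protein that is joined to many targets in the response, was high in both lines. It lay between 8.94 and 9.47 in Hs578T and between 7.36 and 7.97 in BT-20, higher in Hs578T by 1.53 (SE 0.16, adjusted p = 0.0001257). USP18, the protease that removes ISG15, did not pass (0.45, 95% interval -0.18 to 1.09). LGALS3BP, a secreted glycoprotein that binds galectins, was lower in Hs578T (-0.69, SE 0.15), a call lost with housekeeping centring. PLSCR1 did not pass.

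Reading a gene by the mean of its probe sets changed more calls than leaving out any single array. With the mean over all probe sets of a gene in place of the brightest, 14 of the genes passed in place of 21. EIF2AK2, EPSTI1, IFI44, IFIH1, RIGI, SAMD9L and XAF1 were lost. A mean with dim probe sets can fall under the level for testing, so a lost call need not be a failed test. All other probe sets of EPSTI1, IFI44 and IFIH1 stayed under 5. Of the 45 genes, 24 had several probe sets and 10 had several that reached 5, of which 4 (RIGI, SP110, PLSCR1 and EIF2AK2) gave a line difference of the opposite sign in another probe set. Without the BT-20 M array of set 1, 21 genes passed, with IFITM3 lost and IFITM2 gained. Shares of all genes under either setting are not given here.

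M was compared with U to ask whether methylation of the same CpG sites changed the response. None of the 30 genes passed in either line, over the pair of lines or as a difference of the lines' responses, and 0 of 10410 genes passed in any of these (0%). At an unadjusted p under 0.05, 1 gene was found in Hs578T (background 6.53%), 0 in BT-20 (1.67%), 1 over both lines (5.22%) and 0 for the difference (2.48%), which is at or under the share of all genes. The median difference, M minus U, was -0.04 in Hs578T and -0.10 in BT-20. The median size of the difference was 0.18 and 0.21, against 0.15 and 0.10 over all genes. With 2 arrays a group, the intervals below show which sizes could not be told from 0.

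Between sets, 11 of 30 genes in Hs578T and 12 in BT-20 changed sign. Only IFIT2 in Hs578T and only RIGI in BT-20 differed by over 0.5 the same way in both sets. The shares over all genes were not counted, so these counts do not set these genes apart from others. IFIT2 was at 6.15 and 6.87 with M and 5.00 and 6.18 with U in Hs578T. M was above U in each set, but the M array of set 1 was below the U array of set 2. The difference was 0.92 (95% interval -0.03 to 1.87, adjusted p = 0.7531), or 0.32 to 1.51 without any 1 array, and in BT-20 IFIT2 was between 6.10 and 6.23 in these 4 arrays. RIGI in BT-20 was at 5.40 and 5.30 with M and 4.65 and 4.51 with U, without overlap, and the difference was 0.76 (95% interval -0.04 to 1.56, adjusted p = 0.9998).

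IFI44 was the gene at an unadjusted p under 0.05 in Hs578T, at 5.42 and 6.24 with M and 5.36 and 4.13 with U. M was above U in each set, and almost all of the difference came from set 2. It was 1.08 (95% interval 0.08 to 2.08, adjusted p = 0.7228), or 0.47 to 1.70 without any 1 array. IFI6 differed by 0.37 (95% interval -0.04 to 0.79) in Hs578T, or 0.15 without the M array of set 2, and did not pass.

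PARP14, an ADP-ribosyltransferase that modulates STAT signalling, was the gene at an unadjusted p under 0.05 over both lines. It was at 6.53 and 5.30 with M and 6.79 and 6.57 with U in Hs578T, and at 5.68 and 6.42 with M and 6.95 and 6.71 with U in BT-20. Every M array was below every U array of its line. The difference over both lines was -0.77 (95% interval -1.48 to -0.06, adjusted p = 0.9365), -0.59 without the BT-20 M array of set 1 and -0.46 without the Hs578T M array of set 2. With arrays paired by the name of the set, EIF2AK2, IRF9, PARP9 and IFI35 were also lower with M in all 4 pairs. IFIT5 was higher in all 4, and none of these passed. Some differences were as small as -0.007 (IFI35, Hs578T set 1). The share of all genes with 1 sign in all 4 pairs was not counted, so this is a description only.

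Further genes with the smallest p in BT-20 were EPSTI1 (0.52, 95% interval -0.25 to 1.28) and USP18 (0.35, 95% interval -0.54 to 1.25) above U, and DDX60 (-0.43, 95% interval -0.90 to 0.04) and PARP9 (-0.89, 95% interval -2.16 to 0.38) below. EPSTI1 and DDX60 were under 5 in these arrays, and the EPSTI1 difference rested on the M array of set 2, with 0.01 without it and 1.02 without the M array of set 1. The PARP9 difference was -0.002 without the BT-20 M array of set 1, and that of USP18 ranged from 0.07 to 0.64 without any 1 array. For the difference between the lines, IFI6 (0.56, 95% interval -0.03 to 1.15) was furthest toward Hs578T by p, and RIGI (-0.90, 95% interval -2.03 to 0.24) toward BT-20, and without any 1 array they ranged from 0.34 to 0.78 and from -1.39 to -0.40. The difference between the lines was therefore not detectable for any of these genes at this number of arrays.

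**Figure D3:**
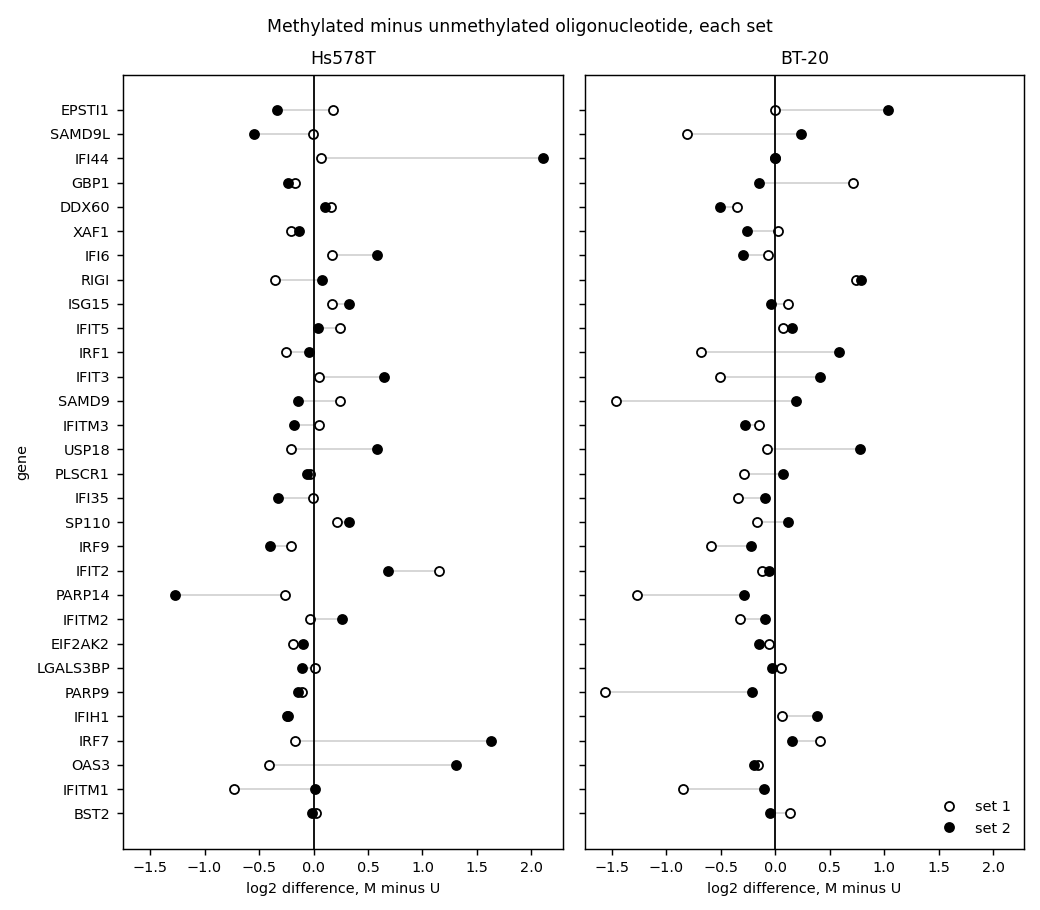
Difference in log2 GCRMA value, M minus U, within set 1 (open) and set 2 (filled), for the 30 genes tested (rows), in Hs578T (left) and BT-20 (right). Sets often lie on opposite sides of 0, for 11 genes in Hs578T and 12 in BT-20, with no share over all genes counted. IFI44, IRF7 and OAS3 in Hs578T stand out in set 2 alone.

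ODN2006 was compared with its GpC control over both lines, with 1 array of each per line and the spread taken from the M and U arrays. None of the 30 genes passed, where 1 of 10543 genes did (0.00948%), and none was at an unadjusted p under 0.05, where 4.65% of all genes were. The median difference was 0.04 over these genes and -0.06 over all. In Hs578T, USP18 was 6.18 with ODN2006 and 5.73 with its control, and it was 6.16 and 5.66 in BT-20, a difference of 0.47 (95% interval -0.42 to 1.37). SAMD9L differed by 0.43 (95% interval -0.44 to 1.30), IRF7 by 0.47 (95% interval -0.73 to 1.67), XAF1 by -0.26 (95% interval -0.73 to 0.21) and IFIT5 by -0.26 (95% interval -0.62 to 0.11). The lines were not alike for some of these, with SAMD9L at 0.15 in Hs578T and 0.70 in BT-20, where it was under 5, and IFIT5 at -0.47 and -0.04.

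By single arrays, with no test and over genes at 5 or above in either array of the pair, no gene of 25 in Hs578T was higher or lower with ODN2006 by over 1 (background 1.41% and 1.38%). Of 26 genes in BT-20, none was higher by over 1 (background 0.233%) and 1 was lower (background 1.12%). That gene was OAS1, another synthetase of the RNase L pathway, at 4.08 with ODN2006 and 5.34 with its control. OAS1 entered the count through the control array alone, where it reached 5, so the count says nothing about these genes. OAS1 lay at 3.97 and 4.68 with M and 4.92 and 4.76 with U in BT-20, and the ODN2006 array was thus within the range of the others. MX1, a GTPase that traps viral nucleocapsids, showed the same order under the level for testing in BT-20, at 2.63 with ODN2006, 4.71 with its control and 3.46 to 4.46 with M and U. HERC6, a relative of the ISG15 ligase HERC5, was at 4.75 with ODN2006 and 5.68 with its control and between 4.21 and 4.59 with M and U.

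The single-stranded ODNs (ODN2006 and its control as 1 kind) were compared with the double-stranded M and U, which differ from them in sequence, strandedness and chemistry. In Hs578T, 2 of 30 genes were higher with the ODNs, where 3.08% of all genes were, and 0 were lower, where 5.55% were. At an unadjusted p under 0.05 there were 5 genes (background 27.1%). The median difference was -0.01 over these genes and -0.08 over all. The share called was 6.67% higher and 0% lower, and it rests on 2 genes.

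In Hs578T, IFITM1 reached 6.14 with ODN2006 and 5.69 with its control, and lay between 3.33 and 4.19 with M and U. The ODN arrays were the only Hs578T arrays in which IFITM1 reached 5. The difference was 1.98 (SE 0.43, adjusted p = 0.04111), and 0.92 at least with values under 5 raised to 5, a scale on which it did not pass. In BT-20, IFITM1 was at 11.01 and 11.27 with the ODNs, just above the M and U arrays of set 2 (10.89 and 10.99), and did not pass.

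In Hs578T, XAF1 reached 6.83 with ODN2006 and 7.18 with its control, above all 4 M and U arrays (5.89 to 6.44). The difference was 0.82 (SE 0.17, adjusted p = 0.03928), and in BT-20 XAF1 stayed under 5 in all arrays. The calls of both genes were lost without any one of 8 arrays for IFITM1 and of 10 arrays for XAF1, out of 12. Within the 8 arrays that carry the label code of set 2, which all ODN arrays do, IFITM1 passed (1.74, SE 0.17, adjusted p = 0.007055) and XAF1 did not (0.63, SE 0.16, adjusted p = 0.05938).

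SP110, a nuclear body protein, and IFI44 were lower with the ODNs without passing over the 12 arrays. In Hs578T, SP110 lay at 6.43 with ODN2006 and 6.25 with its control, under all M and U arrays (7.02 to 7.38). The difference was -0.84 (adjusted p = 0.05821), and within the label code of set 2 it was -0.88 (SE 0.14) and passed (adjusted p = 0.02276). IRF9 was higher with the ODNs in Hs578T by 0.68 (adjusted p = 0.1349), and by 0.77 (SE 0.18, adjusted p = 0.04491) within that code. The share of all genes passing within that code is not given here, so passing there does not set these genes apart. IFI44 was at 3.80 and 3.75 with the ODNs, under every M and U array, with a difference of -1.51 (adjusted p = 0.0524), and lay under 5 in too many arrays of that code to be tested there.

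In BT-20, none of the 30 genes passed for the ODNs against M and U, where 0.0379% of all genes did, and 1 was at an unadjusted p under 0.05 (background 6.36%). That gene was IRF9, at 7.62 with ODN2006 and 7.88 with its control, against 6.53 and 7.32 with M and 7.12 and 7.54 with U. The ODN arrays were above all others, and the difference was 0.62 (95% interval 0.04 to 1.21, adjusted p = 0.7721), or 0.43 without the BT-20 M array of set 1. For the difference between the lines, none of these genes passed (background 0.304%), and 3 were at an unadjusted p under 0.05 (background 15.3%). They were XAF1 (0.70, 95% interval 0.12 to 1.27), SP110 (-1.02, 95% interval -1.72 to -0.31) and IFI44 (-1.50, 95% interval -2.72 to -0.27), so a response of these genes in Hs578T alone was not shown.

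**Figure D4:**
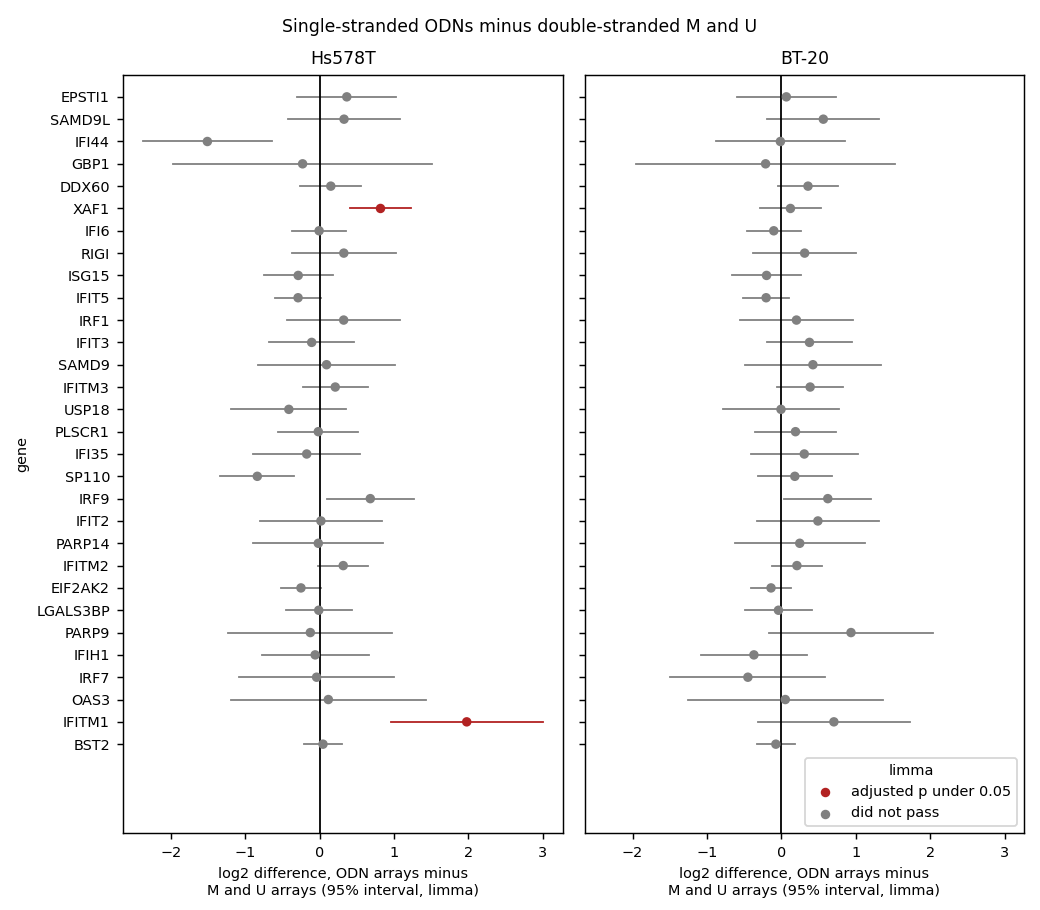
Difference in log2 GCRMA value, the 2 ODN arrays minus the 4 M and U arrays, with 95% intervals from limma, for the 30 genes tested (rows) in Hs578T (left) and BT-20 (right). IFITM1 at 1.98 and XAF1 at 0.82 in Hs578T are the points that passed (red).

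Genes that act before the members in the pathway were described from lists of known genes. Of the 9 interferon ligands listed, 8 had a probe set (IFNA1, IFNA2, IFNB1, IFNE, IFNK, IFNG, IFNL1 and IFNL2), and each was under 3 in every array, ODN arrays included. TLR9 was likewise under 3 in all arrays. The receptor chains were present, IFNAR1 between 7.43 and 8.05 in Hs578T and between 8.51 and 8.75 in BT-20, and IFNAR2, IFNGR1, IFNGR2 and IL10RB above 5 in all arrays, while IFNLR1, the specific chain for the lambda interferons, was under 5. Between the lines, 3 of the 5 receptor chains tested were higher in Hs578T (background 34.4%) and 1, IFNAR1, was lower (background 40.2%; -0.82, SE 0.13, adjusted p = 0.001016). In M against U over both lines, 0 genes of the receptor, kinase, inhibitor and sensing lists passed in either direction.

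Of 20 further interferon-induced genes tested that were not among the 46, 9 were higher and 8 lower in Hs578T than in BT-20 (background 34.4% and 40.2%), and 0 differed between M and U over both lines. With the ODNs against M and U, 3 of the 20 were lower in Hs578T (background 5.55%) and 0 higher (background 3.08%). The largest was IDO1, an enzyme of tryptophan breakdown, at 7.46 and 6.44 with M, 7.46 and 6.45 with U, 2.44 with ODN2006 and 3.75 with its control. The ODN arrays lay far under all M and U arrays, and the difference was -3.86 (SE 0.36, adjusted p = 0.006194). ZNFX1 (-0.63, SE 0.10, adjusted p = 0.02347) and TRIM21 (-1.04, SE 0.19, adjusted p = 0.02883) were the others. PIAS1, an inhibitor of STAT proteins, was lower too (-0.69, SE 0.12, adjusted p = 0.02646). No gene of these lists passed in BT-20.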

How the data were processed

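The deposited values are log2 values for 54675 probe sets on 12 arrays, which the submitters' processing notes credit to GCRMA in R 2.4; whether all arrays were normalised together is not given in the sources used here. Probe sets with 1 gene symbol (41097) were kept, symbols were updated by gene ID through RefSeq (GRCh38.p14), and a gene was read from its probe set of highest mean. Samples were grouped by the labels. limma 3.58.1 in R 4.3.3 was fitted to group means of cell line by treatment, with 4 residual degrees of freedom, all from the M and U groups, so the spread of single ODN arrays was taken from these. Genes at 5 or above in 2 arrays of a comparison were tested, with Benjamini-Hochberg adjustment and a threshold of 0.05. Line, M and U comparisons used 8 arrays, those with ODNs 12. The genes, their roles and the pathway lists were chosen with earlier results of these data known. Values in every array are given for genes past the threshold (the 12 largest between the lines), otherwise for those with the smallest p; of the pathway lists, those past the threshold with the ODNs, ligands and receptors are named. OAS1, MX1, HERC6, SP110 and the arrays that stood apart were singled out after their values were seen. The fits were tested on simulated data. Arrays give no read depth, and their number limits the precision. Alternatives were no filter, values under 5 raised to 5, trend and robust eBayes, housekeeping centring, the mean over probe sets, the set as a block, other selections of arrays and each array left out.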

Additional observations from a re-analysis of the deposited data

Results flagged for a closer look

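IDO1, an interferon-induced gene outside the 46, was singled out by the test of the difference between the lines for the ODNs against M and U. The value was -3.99 on the log2 scale (SE 0.51, adjusted p = 0.04657 in limma). In Hs578T, IDO1 lay between 6.44 and 7.46 with M and U and at 2.44 and 3.75 with the ODNs. In every BT-20 array it lay between 1.86 and 2.23, where a lower value could not be seen. IDO1 entered the test through the Hs578T M and U arrays alone, so the test cannot show that the lines responded differently. Without untreated arrays, a rise with M and U and a fall with the ODNs cannot be told apart. No gene of the 46 passed such a test.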

How the results depend on the processing

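Between the lines, 20 to 23 of the 30 genes passed without any single array, 22 with the set as a replicate block, 22 over all 12 arrays and 23 (of more genes) without the filter. For M against U, 0 passed under each alternative, the block included. Without the filter, TRIM22, whose arrays all lie under 5, was the 1 gene that passed for ODN2006 against its control, the 1 gene for the ODNs against M and U in Hs578T and the 1 gene for its difference between the lines. In Hs578T the count of 2 for the ODNs became 1 with values under 5 raised to 5 (XAF1), 1 with trend and robust eBayes (IFITM1) and 5 with the replicate block, where IRF9, RIGI and SP110 were gained. It ranged from 0 to 2 without any single array, and IFITM1 kept its call only without a BT-20 M or ODN array. Adjusted p without an array reached 0.2078 for IFITM1 and 0.1526 for XAF1. The cause was not tested. Shares of all genes passing under these alternatives are not given here, so the counts and gains do not set these genes apart.

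Deviations from the group mean correlated between M and U of the same set at 0.599 in Hs578T and 0.595 in BT-20. With 2 sets a line this is a hint from the data, not a pairing given by the design. With the mean over probe sets, the signs of EIF2AK2 (M against U in Hs578T, 0.045) and RIGI (difference between the lines, 0.024) turned, and neither had passed. Differences of genes under 5 are limited by background signal, and 2 arrays a group by number.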
